A study of Mus musculus with 12 samples.

Results

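This comparison asked what CCNF depletion changed in myoblasts that were already depleted of KEAP1. It sets 3 libraries labelled siKEAP1/siCCNF against 3 libraries labelled siKEAP1, grouped by their treatment labels, which are 6 of the 12 libraries of the series. Every gene with enough reads was compared, 15122 of the 54532 genes in the deposited count table. All cultures were C2C12 cells, an established line of mouse myoblasts that grow as single cells in serum and fuse into myotubes when serum is lowered, and poly(A) RNA was sequenced 48 h after transfection with siRNA at 30 nM. The siKEAP1 cultures received an siRNA against Keap1, and the siKEAP1/siCCNF cultures received siRNAs against Keap1 and Ccnf, so that both sides of the comparison carry the KEAP1 depletion. The remaining groups, siCONTROL and siCCNF with 3 libraries each, give the level in control cells and the effect of the Ccnf siRNA where KEAP1 is present. These are transient depletions in a single cell line in growth medium, and the sources used here do not say whether 30 nM counts all siRNAs together or each one, whether the single depletions were filled up with control siRNA, or which of the study's Ccnf siRNAs was sequenced.

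KEAP1 is the substrate adaptor of a CUL3 ubiquitin ligase that marks the transcription factor NRF2, the product of Nfe2l2, for destruction. Where KEAP1 is missing or oxidised, NRF2 builds up, pairs with a small MAF protein and binds antioxidant response elements near genes for glutathione synthesis, NADPH supply, drug metabolism and iron storage. Cyclin F, encoded by Ccnf, is the adaptor of an SCF ubiquitin ligase that takes E2F factors and other cell cycle proteins to the proteasome. In myoblasts, MYOD1 and then myogenin drive cell cycle exit, fusion and the assembly of sarcomeres, and a lasting excess of NRF2 is known to stand in the way of this programme.

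Levels are given as CPM, the reads of a gene scaled to a common effective library total, and are compared only within a gene. Differences are log2 fold changes of siKEAP1/siCCNF minus siKEAP1 ± their standard error from edgeR's quasi-likelihood fit, so that a positive value is a higher level after the double depletion. A gene is called higher or lower in the text where its Benjamini-Hochberg adjusted p from edgeR was under 0.05, and "called" in the counts where it also differed more than 2-fold. Both siRNA targets were read first. Ccnf (ENSMUSG00000072082, chr17:24223232-24251409 of GRCm38) stood at 56.8, 64.9 and 56.4 CPM in the siKEAP1 libraries and 23.7, 24.1 and 25.6 CPM in the siKEAP1/siCCNF libraries. The groups did not overlap, and Ccnf mRNA fell by 1.28 ± 0.075 (adjusted p = 2.63e-08, edgeR), to 41.2% of the siKEAP1 mean. Keap1 (ENSMUSG00000003308, chr9:21229730-21239361) stood at 12.3, 12.8 and 12.7 CPM in the siKEAP1 libraries and 22.2, 27.01 and 23.1 CPM in the siKEAP1/siCCNF libraries. Every siKEAP1/siCCNF library thus held more Keap1 mRNA than every siKEAP1 library, a rise of 0.93 ± 0.084 (adjusted p = 1.07e-06, edgeR), although its level remained far below the 87.8 ± 3.05 CPM (SD, n = 3) of siCONTROL. The part of this weaker Keap1 depletion in the results below was not tested.

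The 6 libraries held between 21346088 and 32216830 counts. In siKEAP1/siCCNF replicate 3 longer genes stood lower relative to the mean of its group (Pearson r = −0.276 between deviation and length, over 15122 genes that are no independent replicates), and in replicates 1 and 2 they stood higher (r = 0.199 and 0.152). Of 6 myoblast markers 5 were tested, and their summed level ranged from 631 to 666 CPM after siKEAP1 and from 503 to 584 CPM after siKEAP1/siCCNF. Among markers of other cell types, the summed level of the adipocyte list was 139 to 145 CPM against 70.6 to 84.3 CPM, that of the fibroblast list 1505 to 1580 CPM against 954 to 1019 CPM, that of the epithelial and Schwann cell list 50.6 to 54.7 CPM against 22.7 to 26.2 CPM, and that of the endothelial list 2.32 to 3.02 CPM against 0.647 to 0.923 CPM. The bone and cartilage list, at 159 to 166 CPM against 142 to 185 CPM, overlapped between the groups, with 2 of its 6 tested genes higher and 0 lower. The leukocyte list summed to 7.48 to 12.8 CPM against 6.19 to 9.75 CPM and overlapped between the groups. Of its 3 tested genes 1 was higher and 1 lower. In each group 3 of its 9 genes were at 0 counts, and the common leukocyte antigen gene Ptprc had too few counts to be tested. In bulk RNA, fewer cells of a type and less RNA per cell cannot be told apart.

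Adding CCNF depletion to KEAP1 depletion changed more genes downwards than upwards. At an adjusted p under 0.05, 3651 genes were higher (24.1% of those tested) and 4062 were lower (26.9%). Of these, 804 genes were called higher (5.32%) and 1387 were called lower (9.17%), while the median over all genes was 0.0013 on the log2 scale. The shares of 24.1% higher and 26.9% lower are the background for every count of list members higher or lower in this report. More than 4-fold changes were found for 177 of the genes called higher and 460 of those called lower, and more than 8-fold changes for 44 and 171. The libraries of the 2 groups did not overlap for 9209 of all genes tested (60.9%), and for 779 of the genes called higher and 1374 of those called lower. Genes called in either direction were read less often than most, with a median of 1.90 CPM for those called higher and 4.78 CPM for those called lower, against 23.7 CPM over all genes tested. Of the called genes, 565 of the 804 higher and 1282 of the 1387 lower are protein coding.

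**Figure D1:**
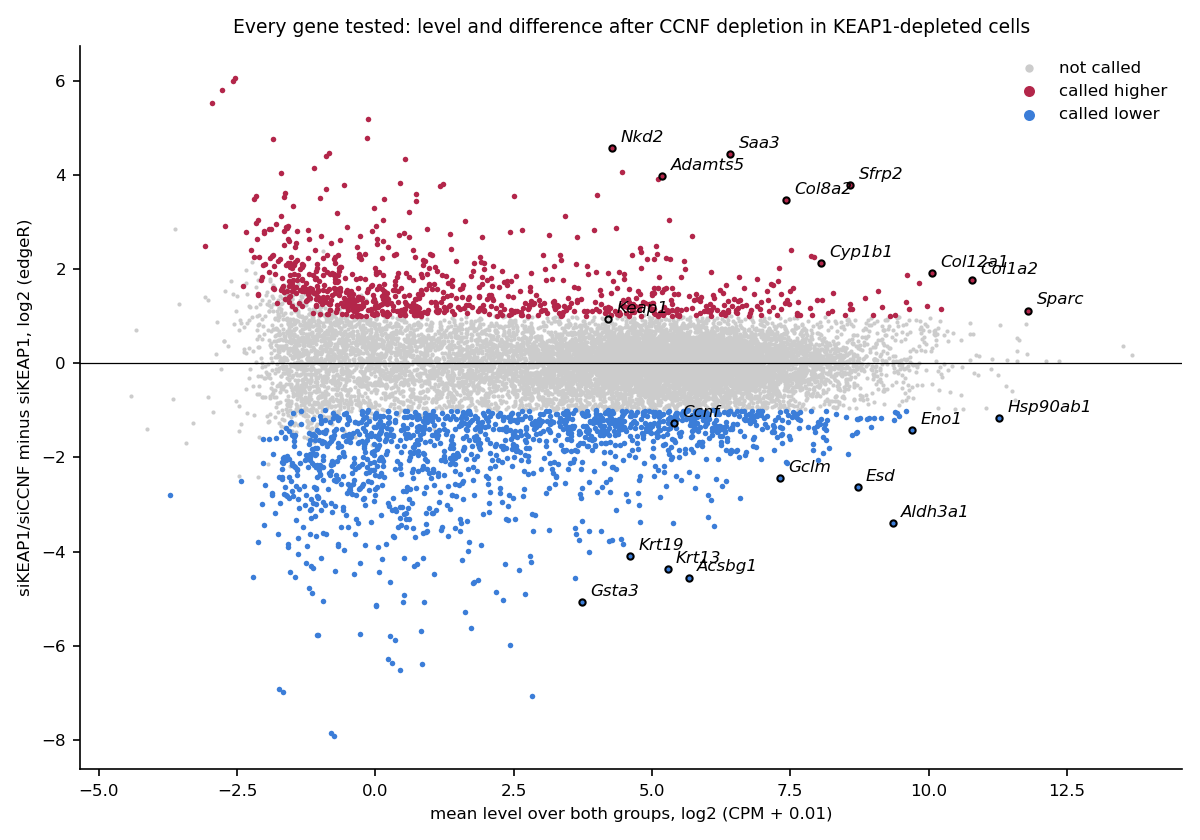
Each dot is 1 gene, with its mean level over the 6 libraries on the x axis (log2 of CPM plus a small constant) and the log2 difference, siKEAP1/siCCNF minus siKEAP1, on the y axis. The 804 genes called higher are red and the 1387 called lower are blue, and larger differences are found among the less read genes on both sides.

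Among called protein-coding genes with a mean log2 CPM of 1 or more and no overlap between the groups, called the level rule here, the 12 largest rises included many secreted and signalling proteins. Less read genes outside this rule, such as Myog and Hp below, had differences of similar size. Nkd2, an inhibitor of Wnt signalling, stood at 1.76, 1.22 and 1.75 CPM in the siKEAP1 libraries and 38.7, 32.3 and 41.1 CPM in the siKEAP1/siCCNF libraries. It rose by 4.57 ± 0.21 (adjusted p = 4.12e-09, edgeR), with no siKEAP1/siCCNF library near the siKEAP1 range. Sfrp2, a secreted Wnt-binding protein of muscle progenitors and fibroblasts, stood at 51.1, 47.96 and 56.2 CPM in the siKEAP1 libraries and 742, 647 and 753 CPM in the siKEAP1/siCCNF libraries. Its rise of 3.79 ± 0.11 (adjusted p = 3.23e-10, edgeR) brought it to 93% of the siCONTROL mean. The BMP antagonist Chrdl1 rose by 4.07 ± 0.15, the small GTPase gene Rasl11b by 3.56 ± 0.35, the fibronectin type III gene Fndc1 by 3.03 ± 0.19, and Cd74, the invariant chain of MHC class II, by 2.88 ± 0.18. The remaining genes among these 12 were the acute-phase genes Saa3 and Ptx3, the matrix genes Col8a2 and Fmod and the matrix proteases Adamts5 and Adamts3, of which Adamts3, a procollagen-processing protease, rose by 3.12 ± 0.26.

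Under the same rule the 12 largest falls were in a mixed group of metabolic, adhesion and epithelial genes. Acsbg1, an acyl-CoA synthetase, stood at 92.9, 103 and 96.9 CPM in the siKEAP1 libraries and 3.65, 4.93 and 3.73 CPM in the siKEAP1/siCCNF libraries. The groups lay far apart, and Acsbg1 fell by 4.55 ± 0.17 (adjusted p = 9.97e-10, edgeR). Selp, which encodes the adhesion receptor P-selectin, stood at 17.9, 26.2 and 26.1 CPM in the siKEAP1 libraries and 0.992, 1.29 and 0.615 CPM in the siKEAP1/siCCNF libraries, and fell by 4.55 ± 0.30. Its level after the double depletion was close to the 0.841 ± 0.224 CPM (SD, n = 3) of siCONTROL. The tetraspanin gene Cd53 (−4.90 ± 0.36), the protein kinase C gene Prkcb (−4.26 ± 0.36), the Dispatched family member Disp2 (−4.23 ± 0.17), the matricellular gene Sparcl1 (−4.09 ± 0.28) and the secretory granule gene Ptprn (−4.005 ± 0.23) fell by similar amounts. The other 5 of these were the glutathione S-transferase genes Gsta3 and Gm3776, the keratin genes Krt13 and Krt19 and the plakin gene Ppl, described with their groups. Cd53 is a gene of leukocytes and Selp of endothelium and platelets, whose summed markers are given above, and the adipocyte regulator Pparg fell by 1.52 ± 0.15. The part of such cells in these falls was not tested. Among the called genes with the most reads, those that rose were Sparc, Col1a2, Col5a2, Col12a1 and Pcolce, all matrix proteins or their processing factors, and those that fell were Hsp90ab1, Eno1, Col18a1, Fstl1 and Ly6a, which encode a chaperone, a glycolytic enzyme, a basement membrane collagen, a follistatin-like secreted protein and a surface antigen.

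Most antioxidant genes were lower after the double depletion. Among the regulators of the pathway itself, 8 of 19 genes were lower, 5 were higher and 6 did not pass, with a median of −0.20 (−0.04 without siKEAP1/siCCNF replicate 3, −0.06 with the gene length trend removed). Nfe2l2 mRNA stood at 145, 154 and 150.2 CPM in the siKEAP1 libraries and 108, 112 and 109 CPM in the siKEAP1/siCCNF libraries. It fell by 0.45 ± 0.053 (adjusted p = 1.38e-05, edgeR). Maff, a small MAF partner of NRF2, fell by 1.70 ± 0.18, and its relatives Mafg (−0.498 ± 0.067) and Mafk (−0.31 ± 0.087) were lower, the last not without siKEAP1 replicate 3 (−0.23). Sqstm1, which encodes p62, a protein that binds KEAP1, stood at 922, 938 and 910.5 CPM in the siKEAP1 libraries and 382, 397 and 429.6 CPM in the siKEAP1/siCCNF libraries, and fell by 1.20 ± 0.068. Of the ligase components, Cul3 had a difference of −0.07 and Rbx1 of 0.10, neither of which passed, and Trip12, the ubiquitin chain elongation factor, had −0.20 and did not pass. Btrc and Fbxw11, which encode the β-TrCP adaptors of NRF2, rose by 0.37 ± 0.076 and 0.24 ± 0.068, the second not without siKEAP1/siCCNF replicate 1 (0.20), and Syvn1, which encodes the NRF2 ligase HRD1, rose by 0.47 ± 0.072.

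Genes for making glutathione were lower in 7 of 12 cases, with a median of −0.92, and 2 were higher. The modifier subunit of glutamate-cysteine ligase, Gclm, stood at 258, 274 and 272 CPM in the siKEAP1 libraries and 45.4, 53.7 and 49.6 CPM in the siKEAP1/siCCNF libraries. All 3 siKEAP1/siCCNF libraries were thus far below the siKEAP1 range. Gclm fell by 2.43 ± 0.073 (adjusted p = 3.23e-10, edgeR), and the double depletion held 93.2% of the siCONTROL mean. Its catalytic partner Gclc stood at 384, 375 and 374 CPM in the siKEAP1 libraries and 109, 115 and 93.6 CPM in the siKEAP1/siCCNF libraries. It fell by 1.83 ± 0.090 and remained at 211% of siCONTROL. The cystine importer gene Slc7a11 stood at 32.3, 33.99 and 32.50 CPM in the siKEAP1 libraries and 9.76, 10.9 and 8.88 CPM in the siKEAP1/siCCNF libraries, and fell by 1.74 ± 0.15, to 186% of siCONTROL. Gsr, the reductase that regenerates glutathione, fell by 1.30 ± 0.069, as did glutathione synthetase, Gss (−1.27 ± 0.094), and Cbs (−2.74 ± 0.29), which supplies cysteine from homocysteine. The heavy chain of the cystine importer, Slc3a2 (0.17), and the glutathione-degrading Chac1 (0.64) were the members that were higher, and neither passed without siKEAP1/siCCNF replicate 2 (0.19 and 0.51) or replicate 3 (0.13 and 0.56), nor without siKEAP1 replicate 1 (0.16 and 0.59) or replicate 2 (0.19 and 0.64). Cth, Chac2 and Ggct did not pass, with differences of −0.37, −0.19 and −0.17.

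Antioxidant response elements in the 300 bases around the start of transcription, 250 before to 50 after it, were sought as the core TGACNNNGC on either strand, where N is any base. The core was found in 22 of the 108 genes of 9 redox lists that had such a window, and in 7 of the 36 of them that were called lower. These are 20.4% and 19.4% of the genes, beside 17.6% of all genes called lower, 15.4% of those called higher and 16.8% of all genes tested that had a window. Counted by window, where a gene can have several, the core was found in 14.1% for genes called lower, 13.4% for genes called higher and 14.1% for all genes tested. A match is a description and not a shown binding site, and such elements also lie further from the start. The windows of 4 genes that fell are shown because they hold the core, in capitals, close to the start (RefSeq, GRCm38.p6, each on the strand of its gene). They are Gclm at chr3:122245307-122245606 on the plus strand, G6pdx at chrX:74428831-74429130 on the minus strand, Txnrd1 at chr10:82858956-82859255 on the plus strand and Gsta3 at chr1:21240335-21240634 on the plus strand.
Gclm: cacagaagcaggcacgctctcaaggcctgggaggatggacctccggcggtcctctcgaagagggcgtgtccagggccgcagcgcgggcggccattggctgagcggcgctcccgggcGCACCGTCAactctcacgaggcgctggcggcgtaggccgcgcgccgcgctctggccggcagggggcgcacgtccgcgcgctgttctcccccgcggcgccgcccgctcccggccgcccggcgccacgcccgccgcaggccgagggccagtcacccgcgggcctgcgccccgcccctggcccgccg
G6pdx: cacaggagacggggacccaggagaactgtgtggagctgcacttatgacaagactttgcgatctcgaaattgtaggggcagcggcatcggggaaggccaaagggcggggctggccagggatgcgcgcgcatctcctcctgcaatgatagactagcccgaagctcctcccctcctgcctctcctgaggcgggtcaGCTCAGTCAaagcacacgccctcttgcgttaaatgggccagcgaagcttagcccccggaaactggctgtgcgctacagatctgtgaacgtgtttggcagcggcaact
Txnrd1: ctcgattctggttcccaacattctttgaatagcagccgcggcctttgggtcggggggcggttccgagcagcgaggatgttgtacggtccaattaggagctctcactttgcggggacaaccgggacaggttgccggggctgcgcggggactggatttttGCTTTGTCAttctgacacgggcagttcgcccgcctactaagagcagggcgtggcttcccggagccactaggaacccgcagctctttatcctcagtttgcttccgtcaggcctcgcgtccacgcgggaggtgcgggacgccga
Gsta3: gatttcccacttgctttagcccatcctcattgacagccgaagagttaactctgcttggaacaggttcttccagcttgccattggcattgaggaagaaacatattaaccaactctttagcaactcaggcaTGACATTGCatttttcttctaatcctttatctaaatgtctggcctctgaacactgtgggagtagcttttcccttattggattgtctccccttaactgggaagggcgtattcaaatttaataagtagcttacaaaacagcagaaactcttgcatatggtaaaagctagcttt

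In the Gclm window the core lies 134 bases before the start, in G6pdx 57, in Txnrd1 92 and in Gsta3 121 bases before it, and capitals that read GCNNNGTCA mark a core on the opposite strand. For Txnrd1, 1 of its 3 annotated starts has the core in its window. The E2F octamers TTTCGCGC or TTTGGCGC were found in 0.932% of the windows of genes called lower, 0.485% of those called higher and 1.43% of those of all genes tested. The xenobiotic response core TNGCGTG, which the aryl hydrocarbon receptor binds, was found in 4.35% of windows of genes called lower, 8.58% of those called higher and 7.78% of all tested. The E-box CAGCTG, which myogenic factors bind, was found in 19.4%, 17.6% and 15.8%. No match says only that these letters are not in this window.

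Enzymes that use or supply reducing power followed the same direction, with exceptions. Of the thioredoxin and peroxiredoxin genes 9 of 15 were lower and 3 were higher, with a median of −0.42. Prdx6, a peroxiredoxin that reduces phospholipid hydroperoxides, stood at 358, 376 and 367 CPM in the siKEAP1 libraries and 104, 111 and 119 CPM in the siKEAP1/siCCNF libraries, and fell by 1.72 ± 0.070. Thioredoxin reductase Txnrd1 (−1.16 ± 0.072), thioredoxin Txn1 (−0.82 ± 0.13), glutaredoxin Glrx (−1.34 ± 0.083) and Prdx1 (−0.71 ± 0.10) fell with it. Sulfiredoxin Srxn1, which repairs peroxiredoxins, fell by 0.24 ± 0.070, from 102 ± 3.92 to 85.9 ± 5.02 CPM (SD, n = 3 each), and did not pass without siKEAP1 replicate 1 (−0.21) or siKEAP1/siCCNF replicate 1 (−0.20). The thioredoxin inhibitor Txnip moved up by 0.98 ± 0.081, from 28.04 ± 1.39 to 55.4 ± 1.11 CPM. Catalase, Cat, fell by 1.32 ± 0.068, and 4 of 8 peroxidase, catalase and dismutase genes were lower, among them Sod1 (−0.56) and Gpx4 (−0.61), whereas Gpx3 (0.47) and Sod3 (0.30) were higher.

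In the NADPH group 7 of 13 genes were lower and 1 was higher, with a median of −0.24. The list's record of Nnt had 0 counts in the 6 libraries and was not tested. Another record with the symbol Nnt, outside these 13, rose by 1.81 ± 0.57 (adjusted p = 0.0166, edgeR), from 0.359 to 1.28 CPM. G6pdx, the X-linked glucose-6-phosphate dehydrogenase that opens the pentose phosphate pathway, stood at 431, 439 and 423 CPM in the siKEAP1 libraries and 110.4, 122 and 114 CPM in the siKEAP1/siCCNF libraries. The gap between the groups was far wider than the spread within either. G6pdx fell by 1.90 ± 0.059 (adjusted p = 3.23e-10, edgeR), to 101% of siCONTROL. The non-oxidative enzymes Tkt (−1.56 ± 0.10) and Taldo1 (−1.12 ± 0.10) and the cytosolic isocitrate dehydrogenase Idh1 (−1.63 ± 0.091) were lower as well. Pgd, the dehydrogenase that follows G6pdx in the same pathway, stood at 275, 251 and 253 CPM after siKEAP1 and at 245, 251 and 272 CPM after siKEAP1/siCCNF. These libraries overlapped and Pgd did not pass (−0.02). The malic enzymes Me1 (−0.39 ± 0.053) and Me2 (−0.33 ± 0.065) were lower by less.

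Drug-metabolising enzymes were lower in most cases. Of the quinone, aldehyde and drug metabolism genes 16 of 22 were lower, with a median of −0.83, and 1 was higher. Aldh3a1, an aldehyde dehydrogenase, stood at 1238, 1222 and 1107 CPM in the siKEAP1 libraries and 104, 117 and 119.9 CPM in the siKEAP1/siCCNF libraries. Its level fell by 3.39 ± 0.15 (adjusted p = 3.11e-09, edgeR) and was still 191% of the siCONTROL mean. Esd, the S-formylglutathione hydrolase, stood at 747, 742 and 683 CPM in the siKEAP1 libraries and 102, 116 and 132 CPM in the siKEAP1/siCCNF libraries, and fell by 2.63 ± 0.11. The biliverdin reductase Blvrb (−1.87 ± 0.11), the iron-binding protein gene Pir (−1.57 ± 0.082), the carbonyl reductase Cbr3 (−1.45 ± 0.12), the quinone reductase Nqo1 (−1.38 ± 0.060), the aldehyde oxidase Aox1 (−1.34 ± 0.10) and the epoxide hydrolase Ephx1 (−1.15 ± 0.059) were called lower. Akr1a1 and Blvra did not pass (−0.06 and −0.16).

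Both cytochrome P450 genes of family 1 that were tested moved, in opposite directions. Cyp1a1, the classic target of the aryl hydrocarbon receptor, stood at 48.6, 52.1 and 49.4 CPM in the siKEAP1 libraries and 4.17, 4.87 and 5.49 CPM in the siKEAP1/siCCNF libraries. It fell by 3.37 ± 0.21 (adjusted p = 4.92e-08, edgeR). Cyp1b1, another target of that receptor, stood at 95.3, 105 and 97.98 CPM in the siKEAP1 libraries and 450.1, 473 and 381 CPM in the siKEAP1/siCCNF libraries. It rose by 2.13 ± 0.11 (adjusted p = 9.33e-09, edgeR), against 219 ± 30.9 CPM in siCONTROL and 483 ± 27.9 CPM in siCCNF (SD, n = 3 each).

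**Figure D2:**
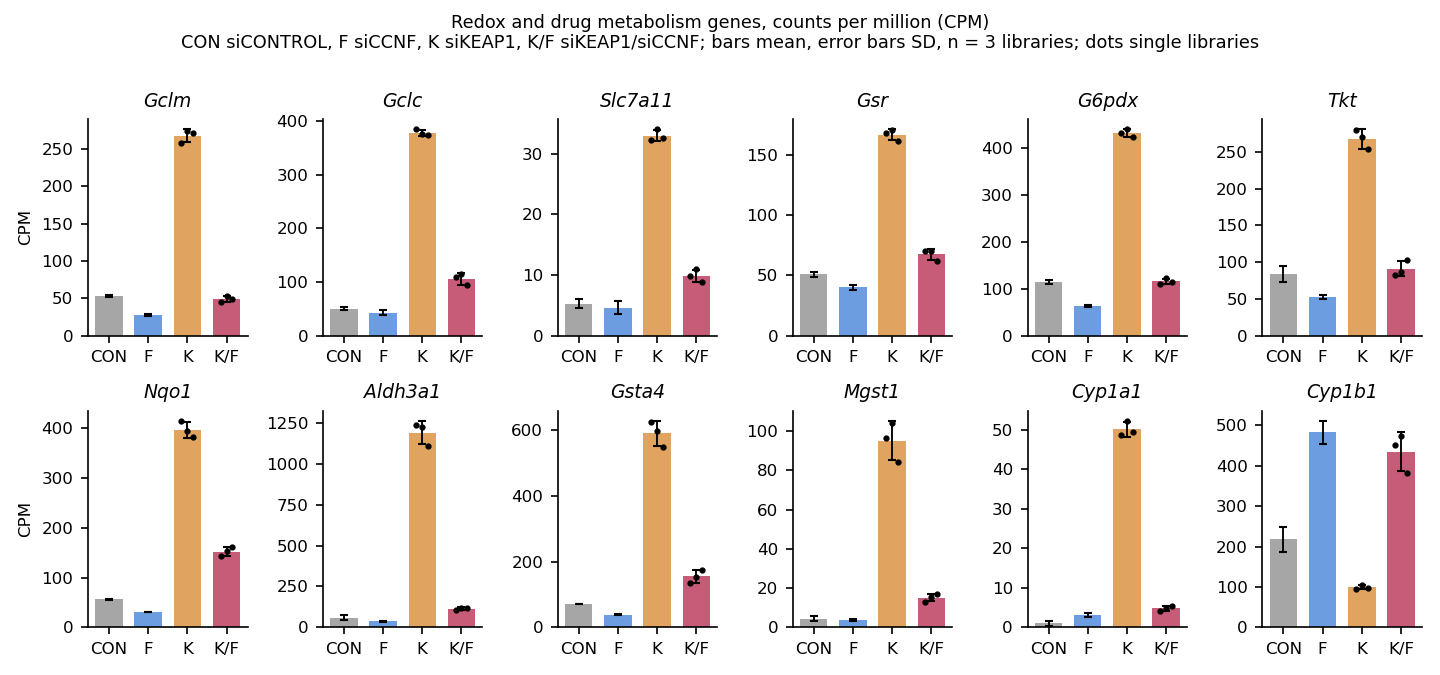
Bars give the mean CPM (y axis) of 12 redox and drug metabolism genes in siCONTROL (CON), siCCNF (F), siKEAP1 (K) and siKEAP1/siCCNF (K/F) cells, error bars the SD of 3 libraries, and dots single libraries of the 2 groups compared. For 11 genes the siKEAP1/siCCNF libraries lie below all siKEAP1 libraries, and for Cyp1b1 they lie above.

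Of 21 glutathione S-transferase genes tested, which couple glutathione to electrophiles, 17 were lower and 1 was higher, with a median of −1.63. Gsta4 stood at 624, 598 and 549.7 CPM in the siKEAP1 libraries and 136, 154 and 176 CPM in the siKEAP1/siCCNF libraries, and fell by 1.93 ± 0.088. The microsomal members Mgst1 (−2.66 ± 0.15), Mgst2 (−2.13 ± 0.15) and Mgst3 (−1.39 ± 0.070) and the omega member Gsto1 (−1.89 ± 0.10) were called lower. Gsta3 stood at 27.54, 28.1 and 21.6 CPM in the siKEAP1 libraries and 0.555, 1.14 and 0.483 CPM in the siKEAP1/siCCNF libraries, and fell by 5.08 ± 0.26 (adjusted p = 5.12e-08, edgeR), the largest fall among the genes named by the level rule. Gstm1 fell by 1.36 ± 0.075, from 715 ± 45.4 to 279 ± 26.9 CPM. The member that was higher, Gstz1 (0.23), did not pass without siKEAP1 replicate 2 (0.18) or 3 (0.19) or without siKEAP1/siCCNF replicate 2 (0.23) or 3 (0.19), and Gstp1, Gstm5 and Gstt2 did not pass (−0.09, −0.12 and 0.54). The alpha and mu classes are families of near-identical genes, to which Gm3776 (−4.39), no member of the list, also belongs, and how reads were shared between them is not given in the sources used here, so single members of these classes are uncertain.

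Of 13 iron and heme genes 8 were lower and 2 higher, with a median of −0.33. The ferritin light chain gene Ftl1 stood at 2095, 2149 and 2031 CPM in the siKEAP1 libraries and 1040, 1056 and 1117 CPM in the siKEAP1/siCCNF libraries, and fell by 0.97 ± 0.080, and the heavy chain Fth1 fell by 0.61 ± 0.084, both genes having processed copies elsewhere in the genome. The iron exporter ferroportin, Slc40a1, fell by 1.20 ± 0.10 and the metalloreductase Steap3, which serves uptake through transferrin, was lower (−2.03 ± 0.081), whereas the transferrin receptor gene Tfrc rose by 0.58 ± 0.10 and the iron regulatory protein Aco1 by 0.35 ± 0.058. Heme oxygenase, Hmox1, stood at 124, 142 and 127 CPM in the siKEAP1 libraries and 101, 101 and 111 CPM in the siKEAP1/siCCNF libraries, and fell by 0.33 ± 0.078. Of 6 efflux transporter genes 4 were lower and 0 higher, led by Abcc3, which stood at 24.1, 25.52 and 23.03 CPM in the siKEAP1 libraries and 2.18, 2.40 and 2.55 CPM in the siKEAP1/siCCNF libraries, and fell by 3.35 ± 0.14.

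Extracellular matrix genes moved the opposite way. Of 24 collagen genes 12 were higher, 2 were lower and 10 did not pass, with a median of 0.71. The type I chain Col1a1 stood at 86.7, 85.3 and 82.8 CPM in the siKEAP1 libraries and 419.6, 378 and 415 CPM in the siKEAP1/siCCNF libraries. Every siKEAP1/siCCNF library held more than 4 times the level of any siKEAP1 library, a rise of 2.25 ± 0.090 (adjusted p = 1.71e-09, edgeR). Its partner Col1a2 stood at 828, 768 and 795 CPM in the siKEAP1 libraries and 2812, 2589 and 2744 CPM in the siKEAP1/siCCNF libraries, and rose by 1.77 ± 0.067. Col8a2, a short-chain collagen, stood at 29.3, 25.2 and 30.3 CPM in the siKEAP1 libraries and 331, 284 and 325 CPM in the siKEAP1/siCCNF libraries, and rose by 3.47 ± 0.12 to 107% of the siCONTROL mean. Col12a1, a fibril-associated collagen, rose by 1.91 ± 0.22, Col5a2 by 1.14 ± 0.065, the basement membrane chains Col4a1 and Col4a2 by 1.19 ± 0.10 and 0.69 ± 0.087, and Col3a1 by 0.84 ± 0.069. The number lower was 4 without siKEAP1/siCCNF replicate 3. Both members that were lower with all libraries were Col5a3, which fell by 1.60 ± 0.080, and Col18a1, which fell by 1.02 ± 0.071. The fall of Col18a1 was under 2-fold, at −0.89, when the gene length trend of each library was removed.

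Of 22 matrix proteins, proteases and inhibitors 14 were higher and 3 lower, with a median of 0.75. Sparc, a collagen-binding glycoprotein, stood at 2277, 2208 and 2252 CPM in the siKEAP1 libraries and 4826, 4444 and 5362 CPM in the siKEAP1/siCCNF libraries, and rose by 1.12 ± 0.070. Thbs1, which encodes thrombospondin 1, stood at 329.9, 319 and 351 CPM in the siKEAP1 libraries and 1329, 1335 and 998 CPM in the siKEAP1/siCCNF libraries, and rose by 1.87 ± 0.17, and periostin, Postn, rose by 2.36 ± 0.11. The small leucine-rich proteoglycans Dcn and Fmod rose by 2.69 ± 0.14 and 3.57 ± 0.27, tenascin C, Tnc, by 1.47 ± 0.15, and fibronectin, Fn1, by 0.81 ± 0.19. Adamts5, a protease of proteoglycans, stood at 5.20, 3.04 and 4.87 CPM in the siKEAP1 libraries and 71.8, 75.2 and 57.6 CPM in the siKEAP1/siCCNF libraries, and rose by 3.97 ± 0.20, and Adamts1 rose by 1.995 ± 0.10. The procollagen enhancer Pcolce, which is not in the list, rose by 1.22 ± 0.073, and the collagen crosslinking enzyme Lox by 0.90 ± 0.12. Among the metalloproteases Mmp2 and Mmp14 rose by 0.92 ± 0.056 and 0.42 ± 0.061, whereas Mmp9 (−1.18 ± 0.16) and Mmp10 (−3.03 ± 0.58) fell, and the inhibitor Timp1 fell by 0.38 ± 0.091. Fibroblast markers, of which 2 of 5 were higher and 2 lower, included a rise of the receptor gene Pdgfra (1.49) and falls of Ly6a (−1.06) and Cd34 (−0.55), and the part of such cells in the matrix genes was not tested.

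**Figure D3:**
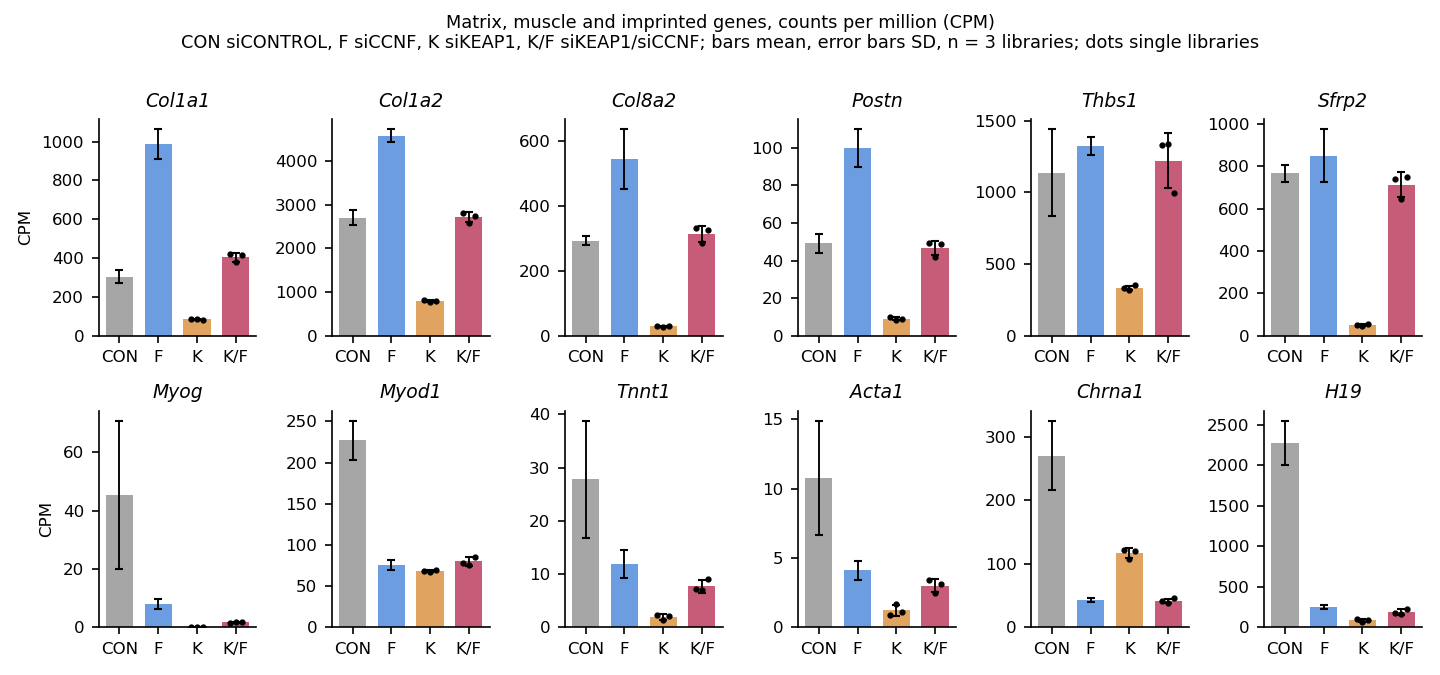
Bars give the mean CPM (y axis) of 6 matrix or secreted genes and 6 muscle or imprinted genes in siCONTROL (CON), siCCNF (F), siKEAP1 (K) and siKEAP1/siCCNF (K/F) cells, error bars the SD of 3 libraries, and dots single libraries of the 2 groups compared. The matrix genes lie higher after siKEAP1/siCCNF than after siKEAP1 in every library, and Myog, Tnnt1, Acta1 and H19 remain far below siCONTROL.

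Myogenic transcription factor genes showed no common direction. Of 14 tested 4 were higher (2 without siKEAP1 replicate 2, without siKEAP1 replicate 3 or without siKEAP1/siCCNF replicate 1) and 3 lower, shares close to the 24.1% and 26.9% of all genes tested, with a median of −0.10 (−0.0074 without siKEAP1/siCCNF replicate 3, 0.03 with the gene length trend removed). Myogenin, Myog, stood at 0.232, 0.162 and 0.132 CPM in the siKEAP1 libraries and 1.51, 1.76 and 2.02 CPM in the siKEAP1/siCCNF libraries. The groups did not overlap, and Myog rose by 3.30 ± 0.70 (adjusted p = 0.00155, edgeR). The double depletion yet held 3.89% of the 45.3 ± 25.4 CPM of siCONTROL (SD, n = 3). Myog levels after siKEAP1 were close to the 0.131 CPM of a floor of 3 counts, and the rise ran from 0.96 to 3.34 under the other settings. Myod1 stood at 68.7, 67.1 and 69.9 CPM in the siKEAP1 libraries and 78.49, 76.1 and 85.9 CPM in the siKEAP1/siCCNF libraries, at 35.3% of the siCONTROL mean. The libraries did not overlap, but the difference of 0.22 ± 0.084 passed narrowly (adjusted p = 0.0397, edgeR) and no longer in DESeq2 (0.22, adjusted p = 0.0505) or with a replicate block (0.22, adjusted p = 0.0617), nor without any single one of 5 of the 6 libraries (0.18 to 0.24), all but siKEAP1/siCCNF replicate 2. Mef2a, a partner of MYOD1, rose by 0.79 ± 0.10. Myf5, which marks proliferating myoblasts, fell by 0.59 ± 0.080, Eya4 was lower (−0.47 ± 0.12), and Pax7 did not pass (−0.13).

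Most sarcomere genes were read little. Of 31 tested 11 were higher and 5 lower, with a median of 0.39. The number higher was 6 with a minimum of 10 counts and 7 in limma on log2(FPKM + 1). The slow troponin T gene Tnnt1 stood at 2.42, 1.42 and 2.15 CPM in the siKEAP1 libraries and 7.14, 6.99 and 9.18 CPM in the siKEAP1/siCCNF libraries, and rose by 1.96 ± 0.31 against 27.8 ± 10.96 CPM in siCONTROL (SD, n = 3). Skeletal actin, Acta1, rose by 1.27 ± 0.31, from 1.23 ± 0.384 to 3.02 ± 0.475 CPM. Cardiac actin, Actc1, which myotubes also use, was at or under the floor of 3 counts in every siKEAP1 library (3, 0 and 2 counts) and at 32, 19 and 19 counts in the siKEAP1/siCCNF libraries (adjusted p = 0.00888, edgeR). Actc1 did not pass in limma on log2(FPKM + 1) (0.56). The M-band genes Myom1 and Myom2 rose by 1.45 ± 0.30 and 1.93 ± 0.42. The cardiac troponin T gene Tnnt2 stood at 56.2, 55.1 and 53.1 CPM in the siKEAP1 libraries and 9.32, 10.97 and 11.1 CPM in the siKEAP1/siCCNF libraries, and fell by 2.39 ± 0.20, and desmin, Des, fell by 0.41 ± 0.091. The troponin gene Tnni1 and titin, Ttn, did not pass (0.14 and 0.39).

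Adhesion and fusion genes showed no common direction, with 6 of 18 higher and 6 lower. The fusogen genes Mymk and Mymx did not pass (−0.52 and −1.04), with 0.448 ± 0.0349 and 0.311 ± 0.00559 CPM for Mymk in the siKEAP1 and siKEAP1/siCCNF groups and 10.6 ± 6.08 CPM in siCONTROL (SD, n = 3). The junctional adhesion gene Jam2 stood at 86.1, 75.6 and 81.7 CPM in the siKEAP1 libraries and 20.3, 27.9 and 20.3 CPM in the siKEAP1/siCCNF libraries, and fell by 1.82 ± 0.11, and the laminin receptor subunit Itga7 was lower (−0.995 ± 0.058). Cav3, the muscle caveolin, was at 0 counts in all 3 siKEAP1 libraries and at 0.278, 0.216 and 0.483 CPM in the siKEAP1/siCCNF libraries. Against a floor of 3 counts per library this was at least 2.49-fold higher (adjusted p = 0.00182, edgeR).

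Genes of the neuromuscular junction fell in 5 of 9 cases and rose in 2, with a median of −0.44. The acetylcholine receptor subunit Chrna1 stood at 122, 108 and 119.9 CPM in the siKEAP1 libraries and 41.9, 39.1 and 45.6 CPM in the siKEAP1/siCCNF libraries, and fell by 1.47 ± 0.12. Subunit Chrnd (−2.12 ± 0.21) and the adaptor gene Dok7 (−3.01 ± 0.33), which activates the receptor kinase MuSK, fell further. Rapsyn, Rapsn, which clusters the receptor, stood at 30.8, 34.6 and 31.4 CPM in the siKEAP1 libraries and 70.95, 68.2 and 79.52 CPM in the siKEAP1/siCCNF libraries, and rose by 1.17 ± 0.12, and agrin, Agrn, rose by 0.64 ± 0.17. Among splicing regulators of muscle 2 of 8 were higher and 2 lower, shares close to those of all genes tested, and on leaving out 1 library the number higher ran from 1 (without siKEAP1 replicate 1 or 3) to 4 (without siKEAP1/siCCNF replicate 3). They included a fall of Mbnl2 (−1.34 ± 0.15) and a rise of Rbm24, a splicing factor of muscle, by 1.79 ± 0.53 from 0.336 ± 0.270 to 1.21 ± 0.125 CPM, which did not pass without siKEAP1 replicate 1 (1.51) or 3 (1.48).

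Notch, BMP and growth factor genes changed unevenly. In the Notch pathway, which keeps muscle progenitors undifferentiated, 6 of 12 genes were lower and 1 was higher, with a median of −0.60. Notch1 stood at 81.2, 84.46 and 84.3 CPM in the siKEAP1 libraries and 43.8, 44.1 and 27.7 CPM in the siKEAP1/siCCNF libraries, and fell by 1.11 ± 0.19, and Notch3 fell by 0.94 ± 0.10. The ligand genes Dll1 (−1.38 ± 0.16) and Jag2 (−1.16 ± 0.081) and the target Heyl (−1.87 ± 0.44) fell, whereas the glycosyltransferase gene Lfng rose by 0.69 ± 0.10. Heyl did not pass in limma on log2(FPKM + 1) (−0.29). Of 21 genes for ID factors and BMP or TGF-β responses 10 were higher and 6 lower. Bmp4 stood at 16.1, 17.1 and 18.51 CPM in the siKEAP1 libraries and 73.1, 78.05 and 82.2 CPM in the siKEAP1/siCCNF libraries, and rose by 2.17 ± 0.10. The BMP antagonist Nog rose by 2.47 ± 0.38, and Ctgf, a target of TGF-β and YAP, by 2.31 ± 0.17, while Id1 (−0.93 ± 0.089) and Id2 (−0.94 ± 0.069), which block myogenic factors, and the BMP receptor gene Bmpr1a (−0.96 ± 0.12) fell.

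In the growth factor group 5 of 17 genes were higher and 5 lower, shares close to those of all genes tested. Igfbp4 stood at 13.9, 13.49 and 14.6 CPM in the siKEAP1 libraries and 85.95, 85.04 and 102 CPM in the siKEAP1/siCCNF libraries, and rose by 2.70 ± 0.12. Igf1 rose by 1.53 ± 0.21, from 3.59 ± 1.13 to 10.3 ± 1.71 CPM, and Igfbp7 by 1.38 ± 0.093, whereas Igfbp6 (−0.94 ± 0.10) and the imprinted gene Peg3 (−0.81 ± 0.16) fell. The imprinted non-coding RNA H19 stood at 104, 72.2 and 88.3 CPM in the siKEAP1 libraries and 176, 168 and 227 CPM in the siKEAP1/siCCNF libraries, a rise of 1.11 ± 0.14 that left it at 8.37% of the siCONTROL mean. That rise was under 2-fold without siKEAP1 replicate 2 (0.99) or without siKEAP1/siCCNF replicate 3 (0.97).

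Cell cycle genes were lower far more often than higher. Of 46 DNA replication genes 34 were lower and 2 higher, with a median of −0.37, and of 57 mitosis genes 31 were lower and 2 higher, with a median of −0.24. The number of mitosis genes higher was 5 without siCONTROL replicate 1, 0 without siKEAP1 replicate 3 and 6 with the gene length trend removed. The helicase subunit Mcm6 stood at 252, 261 and 259.8 CPM in the siKEAP1 libraries and 128, 142 and 145 CPM in the siKEAP1/siCCNF libraries, and fell by 0.90 ± 0.059, and the polymerase α subunit Pola2 fell by 1.05 ± 0.081. The mitotic phosphatase gene Cdc25b fell by 1.01 ± 0.059 and Cdc20 (−0.60 ± 0.067), a coactivator of the anaphase-promoting complex, was lower, whereas Cdk1, Plk1, Aurkb and Foxm1 did not pass (−0.17, −0.0018, −0.03 and 0.0018). Both replication genes that were higher, Mcm10 (0.24) and Orc6 (0.30), did not pass without siKEAP1 replicate 3 (0.28 and 0.29) or without siKEAP1/siCCNF replicate 3 (0.24 and 0.22).

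Regulators of the entry into S phase changed in both directions, with 6 of 12 G1 and S phase cyclin and CDK genes lower, 4 higher and a median of −0.18 (−0.27 without siKEAP1/siCCNF replicate 2, −0.10 without replicate 3, −0.06 with the gene length trend removed). Cyclin D1, Ccnd1, stood at 418, 468 and 476 CPM in the siKEAP1 libraries and 130.1, 137 and 126 CPM in the siKEAP1/siCCNF libraries. It fell by 1.79 ± 0.10 (adjusted p = 1.58e-08, edgeR), to 58.6% of siCONTROL. Its kinase Cdk4 stood at 387, 368 and 362 CPM in the siKEAP1 libraries and 145, 137 and 172 CPM in the siKEAP1/siCCNF libraries, and fell by 1.30 ± 0.088. Cyclin E1, Ccne1, stood at 17.1, 17.54 and 16.49 CPM in the siKEAP1 libraries and 45.6, 45.49 and 53.51 CPM in the siKEAP1/siCCNF libraries, and rose by 1.5002 ± 0.093, while Ccne2 fell by 0.84 ± 0.10. In the E2F and RB family 7 of 15 genes were lower and 3 higher. Rb1, the retinoblastoma protein, stood at 46.4, 51.1 and 50.4 CPM in the siKEAP1 libraries and 16.1, 16.8 and 14.4 CPM in the siKEAP1/siCCNF libraries, and fell by 1.64 ± 0.093. The repressor E2f6 (−1.11 ± 0.084), the E2F partner Tfdp1 (−0.89 ± 0.053) and E2f1 (−0.55 ± 0.090) were lower, whereas E2f4, E2f5 and Mybl2 rose by 0.23 ± 0.062, 0.40 ± 0.075 and 0.37 ± 0.073. Of 13 genes whose proteins are known substrates of cyclin F 5 were lower and 2 higher (5 with the gene length trend removed). Among them were Cdc6 at −0.53 and Rrm2 at −0.38. Over all genes tested 26.9% were lower and 24.1% higher. The inhibitor Cdkn1a, which encodes p21, stood at 397, 409.8 and 409 CPM in the siKEAP1 libraries and 198, 214 and 225 CPM in the siKEAP1/siCCNF libraries, and fell by 0.93 ± 0.080, and Cdkn1c, which encodes p57, rose by 0.91 ± 0.24.

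The fall of Cdkn1a stood beside other p53 target genes, of which 14 of 28 were lower and 7 higher, with a median of −0.29. The number higher was 4 without siKEAP1/siCCNF replicate 1, and the share higher was close to the 24.1% of all genes tested. Gdf15, a stress cytokine, stood at 52.2, 66.8 and 63.8 CPM in the siKEAP1 libraries and 11.1, 15.2 and 13.6 CPM in the siKEAP1/siCCNF libraries, and fell by 2.19 ± 0.13. The death receptor genes Eda2r (−1.82 ± 0.13) and Tnfrsf10b (−0.98 ± 0.076), Mdm2 (−0.65 ± 0.092), the ligase of p53, and Rrm2b (−1.42 ± 0.17), a ribonucleotide reductase subunit, fell too. The members that rose were led by the kinase gene Plk2 (1.03), Pidd1 (0.81) and Fas (0.71), and Aen and Ccng1 did not pass (−0.0030 and 0.08).

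Inflammatory genes were higher in 15 of 24 cases and lower in 2, with a median of 0.95. Saa3, an acute-phase apolipoprotein, stood at 7.20, 6.76 and 8.51 CPM in the siKEAP1 libraries and 140.4, 162 and 187 CPM in the siKEAP1/siCCNF libraries, and rose by 4.45 ± 0.15. Pentraxin 3, Ptx3, stood at 4.04, 5.35 and 3.38 CPM in the siKEAP1 libraries and 55.8, 64.7 and 72.3 CPM in the siKEAP1/siCCNF libraries, and rose by 3.91 ± 0.17, and haptoglobin, Hp, rose by 3.77 ± 0.45. Complement C3 stood at 58.3, 72.47 and 72.54 CPM in the siKEAP1 libraries and 209.8, 223 and 216 CPM in the siKEAP1/siCCNF libraries, and rose by 1.67 ± 0.20, Lcn2 by 1.62 ± 0.23, the chemokine genes Cxcl1 and Cxcl5 by 1.34 ± 0.083 and 1.29 ± 0.082, and the cytokine genes Lif and Il6 by 1.20 ± 0.10 and 1.03 ± 0.26. Ccl7 fell by 0.89 ± 0.14, and Ccl2, Ptgs2 and Nfkbia did not pass (0.26, −0.30 and 0.10). Of 33 interferon response genes 1 was higher and 3 were lower, with a median of 0.03. That median was −0.24 without siKEAP1 replicate 1 and 0.26 without siKEAP1 replicate 2. The number higher ran from 1 to 6 on leaving out 1 library, with 6 without siCONTROL replicate 1, and from 1 to 7 under the other settings, with 4 under a replicate block and 7 without a filter. The number lower ran from 0 to 4, with 0 without siKEAP1 replicate 2, siKEAP1 replicate 3 or siKEAP1/siCCNF replicate 1 and 1 without siKEAP1/siCCNF replicate 2, and from 2 to 11 under the other settings. Their levels varied widely among the siKEAP1 libraries, as for Isg15 at 20.1, 54.97 and 38.2 CPM. In antigen presentation 3 of 12 genes were higher and 4 lower (2 without siKEAP1 replicate 2, siKEAP1 replicate 3 or siKEAP1/siCCNF replicate 1), near the 24.1% and 26.9% of all genes tested, with rises of B2m (0.56), Tapbp (0.70) and Erap1 (1.12) and a fall of H2-T23 (−1.05).

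Lysosomal genes showed no common direction, with 11 of 27 higher and 10 lower. Gpnmb, a glycoprotein of stressed lysosomes, stood at 2.79, 4.25 and 3.86 CPM in the siKEAP1 libraries and 12.98, 19 and 13.4 CPM in the siKEAP1/siCCNF libraries, and rose by 2.06 ± 0.32. The lysosomal membrane protein gene Lamp1 rose by 0.52 ± 0.066, whereas the cholesterol carrier gene Npc2 fell by 0.86 ± 0.090 and the transcription factor genes Tfeb (−1.37 ± 0.10) and Mitf (−1.46 ± 0.14), which drive lysosomal genes, were lower.

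Glycolytic and hypoxia-responsive genes were lower in 17 of 25 cases and higher in 3, with a median of −0.72. Enolase, Eno1, stood at 1238, 1183 and 1202 CPM in the siKEAP1 libraries and 401, 441 and 516 CPM in the siKEAP1/siCCNF libraries, and fell by 1.42 ± 0.087. Hexokinase Hk1 (−1.14 ± 0.053), pyruvate kinase Pkm (−0.78 ± 0.078), aldolase Aldoa (−0.81 ± 0.092) and the oxygen sensor gene Egln3 (−1.28 ± 0.069) fell, while the collagen prolyl hydroxylase gene P4ha1 rose by 0.84 ± 0.061 and the glucose transporter gene Slc2a1 by 0.30 ± 0.063. Ldha did not pass (−0.20). Gapdh, which has many processed copies, stood at 168, 11.1 and 203 CPM after siKEAP1 and at 12.50, 9.33 and 12.8 CPM after siKEAP1/siCCNF. Replicate 2 of siKEAP1 lay within the range of the other group, so the difference of −3.47 ± 0.95 rests on 2 libraries.

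Epithelial structure genes were lower in 7 of 13 cases and higher in 3, the share higher being close to the 24.1% of all genes tested. Keratin 19, Krt19, stood at 50.6, 43.55 and 43.3 CPM in the siKEAP1 libraries and 2.26, 2.90 and 2.81 CPM in the siKEAP1/siCCNF libraries, and fell by 4.10 ± 0.14. Krt13, a keratin of stratified epithelia that is not among these 13 and was named by the level rule, stood at 77.99, 76.3 and 68.55 CPM in the siKEAP1 libraries and 3.77, 3.23 and 3.73 CPM in the siKEAP1/siCCNF libraries, and fell by 4.38 ± 0.13. Periplakin, Ppl, fell by 3.84 ± 0.18, and the plakophilins Pkp1 (−1.84 ± 0.080) and Pkp3 (−2.13 ± 0.31) were lower. The summed level of the epithelial and Schwann cell markers given above was lower with them. Of its 3 tested members 2 were lower, among them the keratin gene Krt14 (−0.98), and E-cadherin, Cdh1, was higher (2.70), and the part of such cells in these values was not tested.

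The effect of CCNF depletion was compared in KEAP1-depleted and in control cells. The depletion itself was not equal. Ccnf stood at 81.1 ± 3.99 CPM in siCONTROL, 20.49 ± 0.778 in siCCNF, 59.4 ± 4.83 in siKEAP1 and 24.48 ± 1.005 in siKEAP1/siCCNF (SD, n = 3 each), a log2 difference of −1.99 in control and −1.28 in KEAP1-depleted cells, and the difference of these was 0.71 ± 0.11 (adjusted p = 4.42e-04, edgeR). The part of this smaller fall of Ccnf in the differences below was not tested. In control cells, siCCNF against siCONTROL gave 697 genes called higher (4.61%) and 1022 called lower (6.76%). Both comparisons, which share no library, called 303 genes higher, 37.7% of the genes called higher in KEAP1-depleted cells and 43.5% of those called higher in control cells. They called 536 genes lower in both, 38.6% and 52.4%. Opposite calls were few, with 20 genes called higher in KEAP1-depleted and lower in control cells (2.49% and 1.96%) and 34 called lower and higher (2.45% and 4.88%). The difference between the effects, that in KEAP1-depleted cells minus that in control cells, was itself tested, and it was positive for 1599 genes (10.6%) and negative for 1582 (10.5%) at an adjusted p under 0.05. With the gene length trend of each library removed, it was positive for 2539 and negative for 1599. Among the 1387 genes called lower in KEAP1-depleted cells it was negative for 560, positive for 35 and did not pass for 792, and among the 804 called higher it was positive for 234, negative for 20 and did not pass for 550. The call and the difference use the same 6 libraries, so these counts are not independent of each other.

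Among redox genes negative differences outnumbered positive ones, where a negative difference means a larger fall or a smaller rise where KEAP1 was depleted. This was not particular to redox genes, as the p53 target and other lists given below had it too. The difference was negative for 11 of 21 glutathione S-transferase genes, 14 of 22 drug metabolism genes and 6 of 12 glutathione synthesis genes, and positive for 0, 1 and 0. It was negative for 4 and positive for 3 of 13 NADPH genes and negative for 4 and positive for 2 of 13 iron genes. In each of the remaining lists it was negative for 4 genes, of 19 regulators, 15 thioredoxin and peroxiredoxin genes, 8 peroxidase, catalase and dismutase genes and 6 efflux transporter genes, and positive for 1, 1, 1 and 0. In control cells Gclm had a log2 difference of −0.96 after siCCNF, against −2.43 ± 0.073 in KEAP1-depleted cells, and the difference of these was −1.48 ± 0.10 (adjusted p = 1.44e-06, edgeR). Gclc, Slc7a11 and Aldh3a1 had differences of −1.60 ± 0.13, −1.54 ± 0.22 and −2.68 ± 0.20. For Nqo1, which fell in both settings, it was −0.51 ± 0.086. The difference did not pass for Nfe2l2, with log2 values of −0.41 in control and −0.45 in KEAP1-depleted cells. The medians of the glutathione S-transferase genes were 1.76 for siKEAP1 and 0.25 for siKEAP1/siCCNF, each against siCONTROL, and those of the glutathione synthesis genes 0.82 and 0.12, where the 2 contrasts share the siCONTROL libraries.

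Among sarcomere and cell cycle genes positive differences outnumbered negative ones. The difference was positive for 14 of 31 sarcomere genes, 45 of 57 mitosis genes, 29 of 46 replication genes and 12 of 13 genes of cyclin F substrates, and negative for 1, 0, 0 and 0. The smaller fall of Ccnf itself where KEAP1 was depleted stands beside these values. Myog stood lower after siCCNF in control cells (−2.48) and higher in KEAP1-depleted cells (3.30), a difference of 5.78 ± 0.72 (adjusted p = 1.22e-04, edgeR). Its siKEAP1 libraries were close to the floor of 3 counts and its siCONTROL libraries varied widely, so the size of this difference is uncertain. The median of the mitosis genes was −0.94 in control and −0.24 in KEAP1-depleted cells, and that of the replication genes −0.85 and −0.37. For siKEAP1 against siCONTROL, the medians were −0.43 for mitosis and −2.74 for sarcomere genes, beside −0.67 and −1.88 for siKEAP1/siCCNF against siCONTROL. For the p53 target genes the median was 0.34 in control and −0.29 in KEAP1-depleted cells, with a negative difference for 15 of 28. The difference was also negative for 18 of 27 lysosomal, 11 of 24 inflammatory and 6 of 12 antigen presentation genes, and positive for 0, 3 and 0. The median of the inflammatory genes was 1.46 in control and 0.95 in KEAP1-depleted cells. Medians in control and in KEAP1-depleted cells were 0.60 and 0.71 for collagens and 0.58 and 0.75 for matrix genes. Single members differed between the settings, as Col8a2 with a difference of 2.58 ± 0.16 and Thbs1 with 1.65 ± 0.23.

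**Figure D4:**
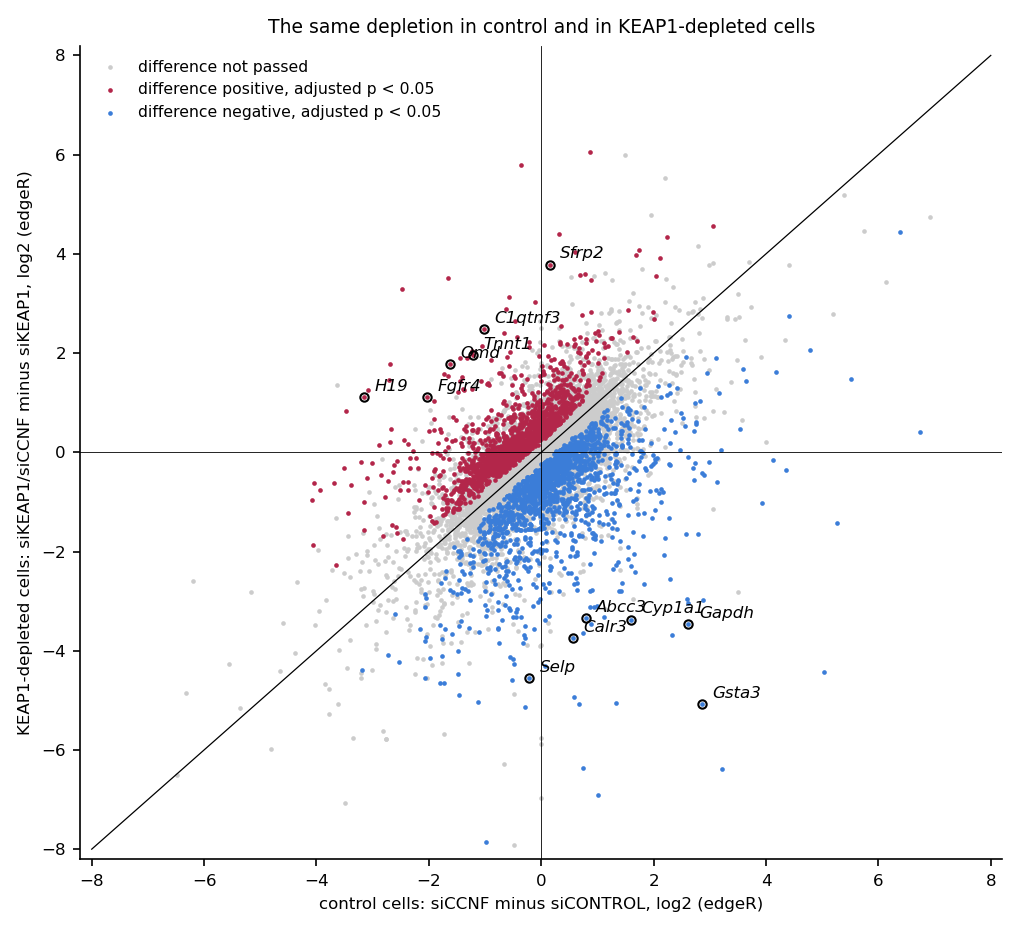
Each dot is 1 gene, with the log2 effect of siCCNF in control cells on the x axis and in KEAP1-depleted cells on the y axis, and the diagonal marks equal effects. Genes whose effects differed at an adjusted p under 0.05 are red (1599 positive) or blue (1582 negative), and the 6 labelled genes on each side are the largest differences among called genes with a mean log2 CPM of 1 or more.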

How the data were processed

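Poly(A) RNA of 12 C2C12 cultures was sequenced, 3 biological replicates in each of 4 groups, which were taken from the treatment labels. The authors deposited a table of 54532 genes that holds, for every library, raw read counts per gene without normalization and FPKM values, and all per-sample columns were mapped to a library (0 were left over). It also holds the authors' own comparisons (log2 fold changes and p-values), which were not used. The submitters' processing notes name HISAT2 and GRCm39, but the gene positions in the table are those of GRCm38, identical to GENCODE M21 for 53462 of 54409 shared genes. The counting tool, its use of strand and its treatment of reads shared by paralogs are not given in the sources used here.

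The counts were fitted in edgeR 4.0.16 (R 4.3.3) by quasi-likelihood with TMM scaling, filterByExpr and 4 group means over all 12 libraries, and p-values were adjusted by Benjamini-Hochberg over the 15122 genes tested. The sources state a 2-fold threshold and no test. Replicates are biological by their labels. The p-values measure the spread between these libraries. An exact permutation test of 3 against 3 cannot go below 0.1 and was not used for single genes. Library totals were 18464209 to 37743198 counts and TMM factors 0.971 to 1.02. A floor of 3 counts corresponds to 0.131 CPM after siKEAP1 and 0.114 CPM after siKEAP1/siCCNF, and covers counting error only. The code was tested on simulated data.

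Named genes are Keap1 and Ccnf, the 12 largest rises and falls among called protein-coding genes whose groups do not overlap and whose mean log2 CPM is 1 or more, the 5 called genes with the most reads in each direction, the 6 most positive and 6 most negative differences between the siCCNF effects among called genes of that level, and members of 46 gene lists written by hand, of whose 853 symbols 778 were tested. The comparison, its members and the lists were chosen with earlier results of these data known. Lists are described by counts and medians and were not tested as sets. Some list members are not reported here. Promoter windows were taken from RefSeq (GRCm38.p6) and matched by symbol for 10548 of the genes tested.

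Alternatives were DESeq2 1.42.0, total library sizes, a minimum of 10 counts in every library, no filter beyond 1 count, a replicate block, limma 3.58.1 on log2(FPKM + 1), the 6 compared libraries alone, removal of each library's trend with gene length by a spline with 5 degrees of freedom, either threshold alone, and leaving out each library.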

Additional observations from a re-analysis of the deposited data

Results flagged for a closer look

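The results given here are the 12 largest differences between the effect of CCNF depletion in KEAP1-depleted cells and its effect in control cells, among called genes with a symbol and a mean log2 CPM of 1 or more, each by a test of the difference itself (edgeR, adjusted p under 0.05). The most positive was that of H19, an imprinted non-coding RNA, at 4.27 ± 0.21, which stood at 2278 ± 269, 256 ± 22.4, 88.2 ± 15.99 and 191 ± 32.03 CPM in siCONTROL, siCCNF, siKEAP1 and siKEAP1/siCCNF (SD, n = 3 each). Sfrp2 followed at 3.64 ± 0.15, with log2 effects of 0.15 in control and 3.79 in KEAP1-depleted cells. The adipokine gene C1qtnf3 had 3.502 ± 0.23, with a mean of 274 ± 60.9 CPM in siCONTROL, 135 ± 6.85 in siCCNF, 10.3 ± 2.56 in siKEAP1 and 57.3 ± 3.24 in siKEAP1/siCCNF. Osteomodulin, Omd, had 3.40 ± 0.29, Tnnt1 had 3.18 ± 0.39 and Fgfr4, a fibroblast growth factor receptor of muscle progenitors, had 3.15 ± 0.22. All of these but Sfrp2 stood lower after siCCNF in control cells and higher in KEAP1-depleted cells.

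On the negative side Cyp1a1 had −4.97 ± 0.36, with log2 effects of 1.60 in control and −3.37 in KEAP1-depleted cells. Selp had −4.34 ± 0.52, Calr3, a testis calreticulin, had −4.31 ± 0.19 and Abcc3 had −4.14 ± 0.23, with 1.40 ± 0.126, 2.08 ± 0.130, 36.1 ± 2.06 and 2.68 ± 0.365 CPM for Calr3 in the order of groups above. The value for Gsta3, −7.94 ± 2.14, is no bound, since its reads were at 0 in siCONTROL and near 0 in siCCNF (0.0280 ± 0.0285 CPM, SD, n = 3) and the fitted value depends on such counts. That for Gapdh, −6.08 ± 1.33, rests on libraries that stand apart within their groups, with 168, 11.1 and 203 CPM in siKEAP1 and 89.9 ± 74.53 CPM in siCCNF, and the gene has many processed copies.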

How the results depend on the processing

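The counts of called genes (2191, of which 804 higher and 1387 lower) moved by more than 1.5 times under 3 settings. A minimum of 10 counts in every library gave 1325 (459 and 866), limma on log2(FPKM + 1) gave 743 (219 and 524), and an adjusted p under 0.05 alone gave 7713 (3651 and 4062). Fewer genes were tested under the first, and the scale of the second understates the change of low genes. DESeq2 called 2332 genes and 2096 of the 2191 in the same direction. Positive differences between the siCCNF effects numbered 1599, and 2539 with the gene length trend removed. That setting also moved the median log2 difference, siKEAP1/siCCNF minus siKEAP1, over all genes to 0.0856, from 0.0013 in the main fit. List medians and counts under that setting include this shift, and its part in the larger number of positive differences was not tested. Leaving out single libraries gave 2061 to 2322 called genes and 2429 to 3397 differences. By their labels, same-numbered libraries of different groups share only a number. For siKEAP1 and siKEAP1/siCCNF, r of their deviations was 0.0267, 0.0406 and −0.0744 for same numbers and −0.111 to 0.0752 for different ones. For siCONTROL and siCCNF it was 0.204, 0.0766 and 0.0795 for same numbers and −0.166 to 0.0946 for different ones. There siCCNF replicate 2 correlated best with siCONTROL replicate 3. With 3 libraries a group these values cannot decide whether same-numbered libraries belong together. A replicate block gave 2176 called genes (799 higher, 1377 lower) and 2964 differences.

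Not every value was fitted under every setting. A minimum of 10 counts left 10 of the 12 differences, 39 of the 45 genes of the naming rules and 179 of the 192 further list members in the text that passed. The 6 compared libraries alone give no difference between effects. Among the 12 differences and the 45 genes no value turned its direction under a setting in which it was fitted, nor did any of the 192 list members. Of the latter, 12 no longer passed under some setting, namely Heyl and Actc1 in limma and Slc3a2, Chac1, Gstz1, Srxn1, Mafk, Fbxw11, Myod1, Rbm24, Mcm10 and Orc6 also or only without single libraries. Of 28 that did not pass, 10 turned sign and 6 (Ldha, Cdk1, Ccng1, Gstt2, Ccl2 and Ptgs2) passed under some setting. Calls over 2-fold were lost for Col18a1 (−0.89 with the length trend removed, −0.9965 without siKEAP1 replicate 2), Ly6a (−0.97 without siKEAP1/siCCNF replicate 1), H19 (0.99 without siKEAP1 replicate 2, 0.97 without siKEAP1/siCCNF replicate 3), and in limma on log2(FPKM + 1) for Fgfr4 (0.92) and Gapdh (−2.39). Keap1 passed 2-fold with the length trend removed (1.04). The difference of Gsta3 did not pass without siCCNF replicate 1 (−7.13) or without siCCNF replicate 3, nor did that of Gapdh in limma (−4.12). Each list median was set beside its main value under every setting in which it was fitted. Of these comparisons 843 were counted as unmoved and 76 as moved. In limma on log2(FPKM + 1) the medians of glutathione S-transferases (−0.82), inflammatory genes (0.42), collagens (0.41), Notch (−0.24) and sarcomere genes (0.05) were smaller by over 1.5 times, as were those of inflammatory (0.38) and Notch genes (−0.33) with a minimum of 10 counts and of NADPH (−0.16) and mitosis genes (−0.14) with the length trend removed, where that of sarcomere genes was larger (0.59). Of the numbers of list members higher or lower under all settings, 1733 stayed within 1.5 times the main number, 84 were smaller and 23 larger by more. With a minimum of 10 counts no endothelial marker was left to give a median. Without siKEAP1/siCCNF replicate 3 no gene of glutathione synthesis, replication, NADPH or proteasome lists was higher. Levels under 0.131 CPM after siKEAP1 lie under the floor of 3 counts and are uncertain.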

Other observations

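Values of further gene groups in the same comparison follow. Heat shock genes were lower in 10 of 15 cases and higher in 2, with a median of −0.45, and the number higher was 4 without siCONTROL replicate 1 or with the gene length trend removed. The constitutive chaperone gene Hsp90ab1 stood at 3466, 3440 and 3382 CPM in the siKEAP1 libraries and 1473, 1505 and 1599 CPM in the siKEAP1/siCCNF libraries, and fell by 1.17 ± 0.061, the small heat shock gene Hspb1 fell by 1.37 ± 0.11 and Hsph1 (−1.29 ± 0.078), an exchange factor of HSP70, was lower. The mitochondrial co-chaperonin gene Hspe1 rose by 0.64 ± 0.15 and Hsf1, the heat shock transcription factor, by 0.66 ± 0.076. Of the metallothionein and zinc transporter genes 4 of 8 were lower and 0 higher, among them Mt1 (−1.45 ± 0.15) and the zinc exporter gene Slc30a1 (−1.13 ± 0.080). Autophagy genes were lower in 11 of 18 cases, among them the receptor genes Optn (−0.90) and Tax1bp1 (−0.57). They were higher in 5, led by the initiating kinase gene Ulk1 (0.85), a share near the 24.1% of all genes tested. Proteasome subunit genes were lower in 10 of 31 cases and higher in 3, with a median of −0.15 (−0.09 without siKEAP1/siCCNF replicate 1, −0.10 without replicate 2), the share lower being close to the 26.9% of all genes tested. The number lower was 5 without siKEAP1 replicate 2 or without siKEAP1/siCCNF replicate 1 and 6 without siKEAP1/siCCNF replicate 2, and the number higher was 0 without siKEAP1 replicate 3 or without siKEAP1/siCCNF replicate 3.

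Immediate early genes were lower in 10 of 21 cases and higher in 4. Dusp4, a phosphatase of MAP kinases, stood at 109, 114 and 112 CPM in the siKEAP1 libraries and 14.52, 19.1 and 14.7 CPM in the siKEAP1/siCCNF libraries, and fell by 2.79 ± 0.14. The Krüppel-like factor genes Klf2 (−1.74 ± 0.16) and Klf4 (−1.43 ± 0.088), Jun (−0.99 ± 0.10) and Fosl1 (−0.98 ± 0.10) fell, while Egr2 and Fos rose by 1.38 ± 0.15 and 1.11 ± 0.16. In the ATF4 and unfolded protein response list 12 of 30 genes were higher and 8 lower, with Nupr1 rising by 1.31 ± 0.12 and Pycr1, an enzyme of proline synthesis, by 0.85 ± 0.12, and a fall of Dnajb9 (−0.89 ± 0.077). Sterol and fatty acid genes were higher in 9 of 31 cases and lower in 11, against 24.1% and 26.9% of all genes tested. Acss2, which makes acetyl-CoA from acetate, stood at 67.3, 64.98 and 64.52 CPM in the siKEAP1 libraries and 10.4, 10.7 and 11.2 CPM in the siKEAP1/siCCNF libraries, and fell by 2.61 ± 0.10, while the mevalonate enzyme gene Mvk rose by 0.53 ± 0.13.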
